A study of Homo sapiens with 4 samples.

Results

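Cold shock in mammalian cells raises a small set of RNA-binding proteins, and 2 of these, RBM3 and CIRBP, were followed here together with CLK1, CLK2, CLK3 and CLK4, the CDC-like kinases. The 6 genes, of 19610 gene symbols in the deposited mRNA table, were chosen by name as genes known to respond to temperature. They were selected on their FPKM in these libraries as well, which were already known, so the levels and ratios to day 0 given here are a description. The table lists 48 transcripts for them, of 79798 in all, under ENSG00000102317 (RBM3), ENSG00000099622 (CIRBP), ENSG00000013441 (CLK1), ENSG00000176444 (CLK2), ENSG00000179335 (CLK3) and ENSG00000113240 (CLK4). The samples are hFOB 1.19 cells, an immortalized line of human fetal bone-forming cells, which carries a temperature-sensitive SV40 large T antigen and so grows at a permissive temperature below that of the body and differentiates at a restrictive one above it. Day 0 is the control, collected at the lower temperature, and days 3, 6 and 9 were collected after transfer to the higher temperature for mineralization, all in the same medium with serum. Each time point has 1 library of total RNA from this single line, so no value has an error between replicates and no test between time points was made. The step from day 0 to day 3 changes temperature, the state of the T antigen, proliferation and time at once, and these cannot be told apart. Days 3, 6 and 9 share a temperature.

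RBM3 and CIRBP are small glycine-rich proteins with a single RNA recognition motif. Both are induced by mild cooling and repressed by heat, and they bind mRNAs and influence their stability, splicing and translation. The CLK kinases phosphorylate SR proteins, the serine- and arginine-rich splicing factors, which they release from nuclear speckles, and their activity is known to be higher at the lower end of the body's temperature range. CLK1 also controls splicing of its own transcript, including a retained intron.

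FPKM per transcript were summed for each gene, and 1 was added to every sum before the log2 ratio of 2 libraries was taken, so that ratios of weakly expressed genes are too small. A gene was counted as 2-fold higher or lower where this ratio was at least 1 or at most -1. The background is the 12859 genes that reached 1 FPKM in any library, which all 6 genes did. The 4 libraries summed to between 538072 and 617857 FPKM, with 11956 to 12421 genes at 1 FPKM or more. The number of reads behind a value is not held in such a table, so no counting interval can be given. Of 9 osteoblast markers, 6 reached 1 FPKM in any library, with SPARC at 1113 FPKM and COL1A1 at 777 FPKM on day 0 and 1275 and 1146 FPKM on day 9, while SP7, BGLAP and IBSP stayed under 1 FPKM in every library. The 15 markers of blood, epithelium, endothelium, fat and muscle summed to between 1.73 and 3.52 FPKM, and 1 of them, CD14, reached 1 FPKM.

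RBM3 had 272 FPKM on day 0, then 9.21, 8.35 and 8.32 FPKM on days 3, 6 and 9. It was thus high in the day 0 library alone, where it ranked 315 among all symbols, and it ranked between 7973 and 8239 later. The day 0 level was 29.6 times that of day 3, 32.6 times that of day 6 and 32.7 times that of day 9. The log2 ratios were -4.74, -4.87 and -4.87, and 1 of the 12859 genes, RBM3 itself, was at or below these. Among the later days its highest FPKM was 1.11 times its lowest. In bulk RNA, loss from a share of the cells and less RNA in each cell cannot be told apart.

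CIRBP had 149 FPKM on day 0, then 60.7, 58.0 and 47.9 FPKM on days 3, 6 and 9. Day 0 was again the highest library, at 2.45, 2.57 and 3.11 times the level of days 3, 6 and 9. Its log2 ratios were -1.28, -1.35 and -1.62, and 305, 320 and 217 of the 12859 genes were at or below these. RBM3 was the more abundant of the pair per length on day 0, with 1.83 times the FPKM of CIRBP, and had 0.152, 0.144 and 0.174 times its FPKM on days 3, 6 and 9.

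CLK4 was the only one of the 4 kinases to pass the 2-fold limit. It had 10.5 FPKM on day 0, then 24.2, 25.1 and 25.4 FPKM on days 3, 6 and 9, so that all later libraries lay above day 0 and within 1.05 times of each other. Its log2 ratios were 1.13, 1.18 and 1.20, close to the limit, and with 5 in place of 1 added to the FPKM they were 0.91, 0.96 and 0.97, under it.

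CLK3, the most abundant of the kinases in each library, had 35.5 FPKM on day 0, then 47.2, 47.5 and 48.7 FPKM on days 3, 6 and 9. Its log2 ratios of 0.40, 0.41 and 0.44 stayed within the limit. CLK2 had 15.3 FPKM on day 0, then 20.7, 18.5 and 15.7 FPKM on days 3, 6 and 9. It was highest on day 3 and by day 9 its log2 ratio to day 0 was 0.04.

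CLK1 had 23.1 FPKM on day 0, then 24.7, 23.5 and 17.4 FPKM on days 3, 6 and 9. Days 0, 3 and 6 lay close together and day 9 was the lowest, with a log2 ratio of -0.38 to day 0 and -0.41 to day 6. Between days 6 and 9, 557 of the 12859 genes had a ratio at or below that of CLK1. CLK1 had 2.19 times the FPKM of CLK4 on day 0, 1.02 times on day 3, 0.936 times on day 6 and 0.685 times on day 9. From day 0 to day 9 the order of the kinases by FPKM thus changed from CLK3, CLK1, CLK2 and CLK4 to CLK3, CLK4, CLK1 and CLK2. With no replicates, neighbours in this order cannot be told apart, and on day 3 CLK1 and CLK4 had 24.7 and 24.2 FPKM.

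**Figure D1:**
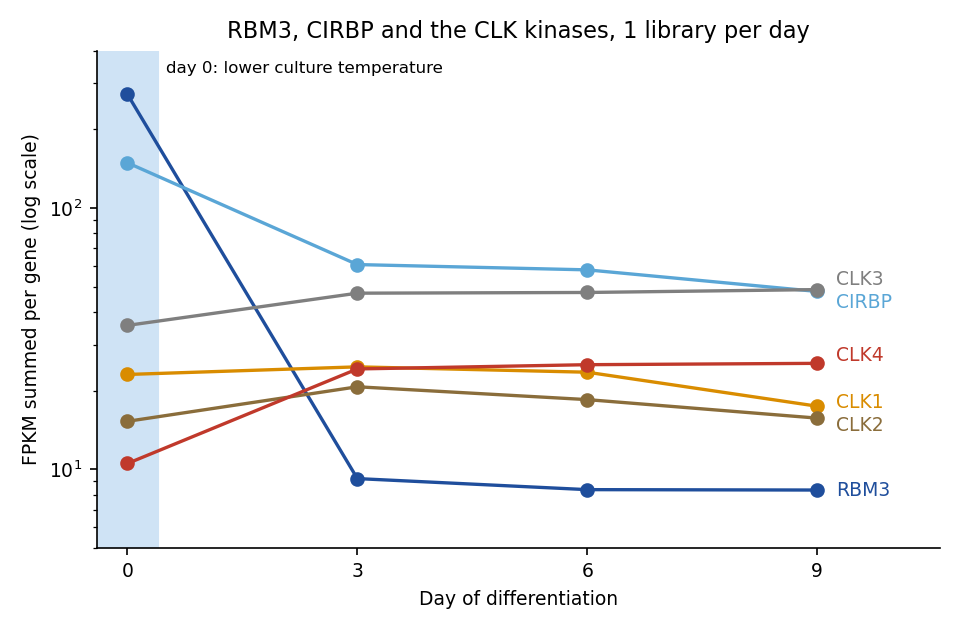
FPKM summed per gene (vertical axis, log scale) against the day of differentiation, 1 point for each of the 4 libraries and 1 line for each gene. RBM3 goes from 272 on day 0 to between 8.32 and 9.21 later, CIRBP from 149 to 47.9 on day 9, and CLK4 from 10.5 to 25.4, while CLK1, CLK2 and CLK3 move less.

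Summed over both RNA-binding proteins, the FPKM were 421, 69.9, 66.3 and 56.2 from day 0 to day 9. Those of the 4 kinases summed to 84.3, 117, 115 and 107. Of the 6 genes, 2 were lower and 1 was higher on each of the 3 later days. Among all genes, 5.30%, 6.42% and 6.52% were at least 2-fold lower on days 3, 6 and 9, and 8.13%, 9.01% and 9.60% were at least 2-fold higher. On all 3 days, 3.45% of genes were lower and 5.93% higher. These 3 comparisons share the day 0 library, and since the genes were chosen with these ratios known, nothing is read from their counts. The split of all genes depended on scaling. Of the genes past the limit, 60.6% were higher on day 3 and 58.4% on day 6, against 77.8% and 74.3% with each library rescaled to the same total FPKM.

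At constant temperature, none of the 6 genes passed the limit. Day 6 against day 3, 0.443% of all genes were at least 2-fold lower and 0.607% higher, and day 9 against day 6, 0.163% were lower and 0.381% higher. The log2 ratios of the 6 genes lay between -0.16 and 0.05 for day 6 against day 3, and between -0.41 and 0.04 for day 9 against day 6. Over all genes, the median size of the log2 ratio was 0.43 for day 3 against day 0 and 0.14 and 0.13 for the later steps.

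**Figure D2:**
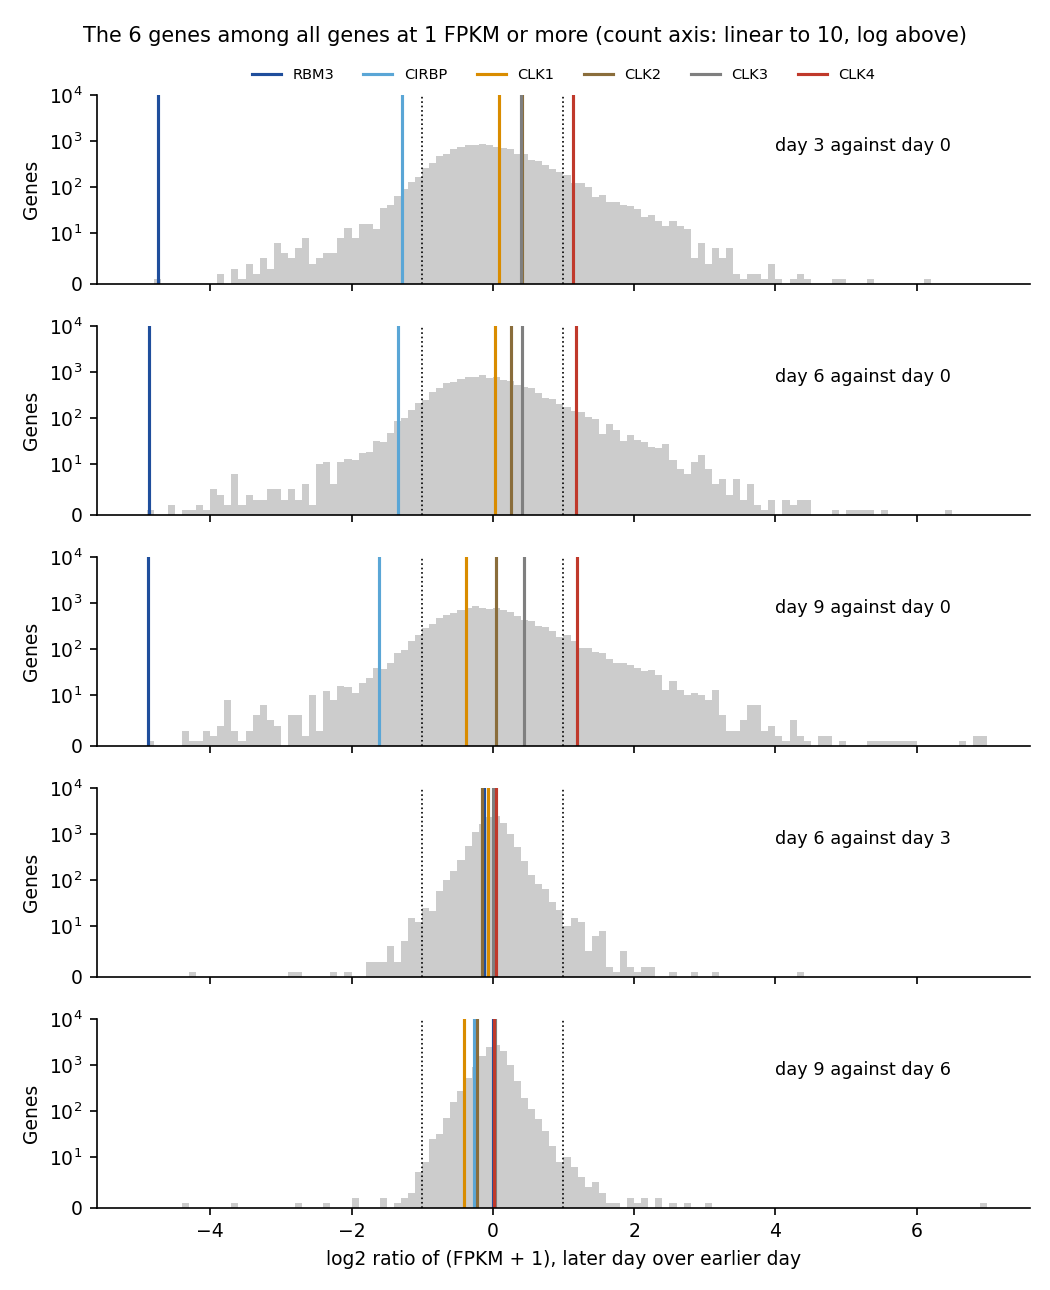
Number of genes (vertical axis, linear to 10 and log above) by log2 ratio of FPKM + 1 (horizontal axis) for 5 pairs of libraries, with a coloured line for each of the 6 genes and dotted lines at -1 and 1. RBM3 stands at the left end in the 3 comparisons with day 0, CIRBP is left of -1 and CLK4 right of 1, and all 6 lie within the dotted lines for day 6 against day 3 and day 9 against day 6.

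The promoters of RBM3, CIRBP and CLK4 are shown because these are the genes that passed the limit. The windows are those of RefSeq on GRCh38.p14, from 250 bases before to 50 bases after the start of the gene, and all 6 genes were matched by symbol, with 8 windows. They were searched on both strands for TCCCCGCC, known as a mild-cold response element of the CIRBP gene, for TTCNNGAA, the core of a heat shock element, and for CACGTG, the E-box that the CLOCK protein binds. Capitals mark a match, and sequences run 5′ to 3′ on the strand of the gene. RBM3 lies on the plus strand at chrX:48574234-48574533, CIRBP on the plus strand at chr19:1269082-1269381 and CLK4 on the minus strand at chr5:178627001-178627300.
RBM3: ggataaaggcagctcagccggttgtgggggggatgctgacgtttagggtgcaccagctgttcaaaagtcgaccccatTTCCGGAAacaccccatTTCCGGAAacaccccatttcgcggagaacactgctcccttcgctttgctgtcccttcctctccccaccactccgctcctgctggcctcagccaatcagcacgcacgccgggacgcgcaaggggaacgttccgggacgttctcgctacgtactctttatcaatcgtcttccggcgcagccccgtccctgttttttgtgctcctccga
CIRBP: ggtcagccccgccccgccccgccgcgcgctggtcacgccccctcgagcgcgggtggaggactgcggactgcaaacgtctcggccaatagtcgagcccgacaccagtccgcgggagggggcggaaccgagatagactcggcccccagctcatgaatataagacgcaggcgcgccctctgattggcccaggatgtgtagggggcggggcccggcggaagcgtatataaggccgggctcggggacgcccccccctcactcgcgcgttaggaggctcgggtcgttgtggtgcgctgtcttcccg
CLK4: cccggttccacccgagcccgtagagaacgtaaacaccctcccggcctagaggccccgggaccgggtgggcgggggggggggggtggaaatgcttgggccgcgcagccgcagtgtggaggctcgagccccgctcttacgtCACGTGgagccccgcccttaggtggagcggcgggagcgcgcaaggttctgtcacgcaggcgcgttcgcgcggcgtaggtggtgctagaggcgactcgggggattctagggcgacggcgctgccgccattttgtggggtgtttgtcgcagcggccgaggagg
The RBM3 window holds TTCNNGAA at 2 places, both as TTCCGGAA, which lie 173 to 166 and 156 to 149 bases before the start within a repeated stretch. Of 35116 promoter windows, 7.74% hold at least 1 match of TTCNNGAA and 0.510% hold 2 or more. These letters also contain CCGGAA, the core that ETS factors bind. CLK4 and CLK2 each hold 1 CACGTG, at 111 to 106 and 72 to 67 bases before the start, as do 7.26% of all windows with at least 1. None of the 8 windows holds TCCCCGCC, which 8.52% of all windows do, and this says only that these letters are not in these windows. A match is a description of letters and no measure of binding.

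Each of the 3 transcripts of RBM3 was higher on day 0 than later, but not by the same factor. ENST00000376759 had 187 FPKM on day 0 and 4.55, 3.30 and 3.66 on days 3, 6 and 9. ENST00000376755 had 72.1 FPKM on day 0 and 0.732, 1.55 and 2.14 later. Together they made up nearly all of the day 0 level, with 259 of 272 FPKM, and had between 4.85 and 5.80 FPKM later. ENST00000354480 had the smallest differences, with 13.2 FPKM on day 0 and 3.92, 3.50 and 2.53 later, and its day 0 level was 3.36, 3.76 and 5.21 times the later ones. Its share of the RBM3 FPKM was 4.83% on day 0 and 42.6%, 41.9% and 30.4% on days 3, 6 and 9. The later shares rest on a total of under 10 FPKM.

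On day 0 most of the CIRBP level lay in 2 of its 22 transcripts, and 4 of the 22 were listed at 0 in every library. ENST00000586472 had 69.9 FPKM on day 0 and 11.6, 9.40 and 11.2 later, and its day 0 level was 6.03, 7.43 and 6.26 times that of days 3, 6 and 9. ENST00000588230 had 59.3 FPKM on day 0 and 29.1, 25.7 and 18.7 later, with day 0 at 2.04, 2.31 and 3.18 times the later levels. The other 20 transcripts, grouped after these values were seen, summed to 19.7, 20.1, 22.9 and 18.1 FPKM from day 0 to day 9, against 129, 40.6, 35.1 and 29.8 for the leading pair. Within this rest, the FPKM of ENST00000585630 were 4.60 on day 0, with the 3 later days listed at 0, and ENST00000589710 had 4.33, 7.08, 7.02 and 4.42 FPKM from day 0 to day 9. Per share, ENST00000586472 went from 46.9% of the CIRBP FPKM on day 0 to 19.1% on day 3, 16.2% on day 6 and 23.3% on day 9.

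Both main transcripts of CLK4 were higher after day 0. ENST00000316308 had 6.05 FPKM on day 0 and 13.2, 15.6 and 15.3 later, and ENST00000520957 had 4.30 on day 0 and 9.71, 8.46 and 8.76 later. Their shares of the gene moved little, from 57.5% and 40.9% on day 0 to 60.3% and 34.5% on day 9. A further one, ENST00000611575, had 0.162 FPKM on day 0 and between 1.05 and 1.28 later.

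The level of CLK1 was similar on days 0, 3 and 6, while on day 3 its leading transcript was lower than on day 0 and the next one higher. ENST00000321356 had 17.3 FPKM on day 0, then 13.2, 16.7 and 13.6 FPKM on days 3, 6 and 9. ENST00000409769 had 3.50, 7.91, 5.30 and 2.44 FPKM, highest on day 3, and its share of the gene was 15.2%, 32.1%, 22.5% and 14.0% from day 0 to day 9. These shares differed among the 3 later days. With no replicates, whether they differed by more than libraries of the same day would was not tested. The cause of the difference was not tested either.

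In CLK2, ENST00000361168 had 1.78 FPKM on day 0, or 11.6% of the gene, and 0.00625, 0.334 and 0.311 FPKM later. The main transcript, ENST00000368361, made up 65.8% of the gene on day 0 and 76.1%, 69.2% and 73.8% later. In CLK3, ENST00000345005 had 11.3 FPKM on day 0 and 20.4, 20.5 and 22.1 later, and its share went from 31.8% to 43.2%, 43.1% and 45.3%. ENST00000568488 had 11.4 FPKM on day 0 and 15.2, 19.5 and 14.8 later. The type read from the table is that of the gene, protein coding in each case, and not that of the transcript. No transcript can therefore be named here as one with a retained intron.

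**Figure D3:**
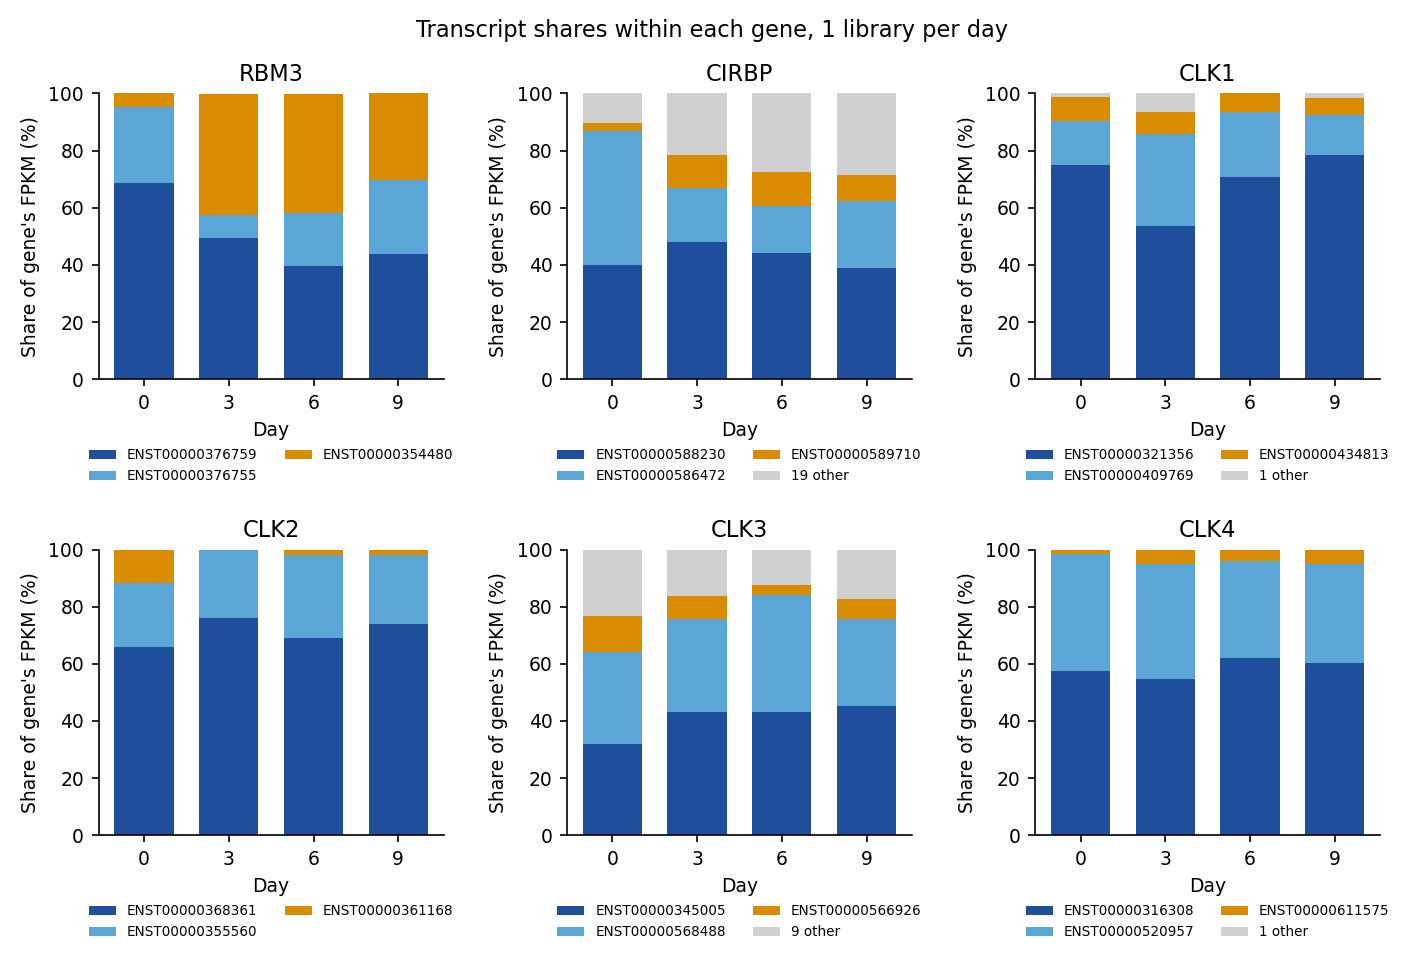
Share of each gene's FPKM (vertical axis, percent) in its 3 transcripts with the highest mean FPKM and in all others (grey), for the libraries of days 0, 3, 6 and 9 (horizontal axis). In RBM3 the share of ENST00000354480 goes from 4.83% to between 30.4% and 42.6%, and in CIRBP that of ENST00000586472 from 46.9% to between 16.2% and 23.3%, while the shares of CLK4 change little.

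Shares within a gene do not depend on the scaling of a library, though at a low summed level they are less certain. The shift in shares between 2 libraries was taken as the sum of the positive differences between the shares of a gene's transcripts, from 0 for equal shares to 1 for no transcript in common, with a limit of 0.25, for genes with at least 2 transcripts above 0 and at least 1 FPKM in both libraries. RBM3 had shifts of 0.378, 0.371 and 0.255 for days 3, 6 and 9 against day 0. CIRBP had 0.313, 0.343 and 0.279. Both thus passed the limit in each comparison with day 0, as did 14.0%, 15.7% and 14.9% of the 9897, 9891 and 9869 genes compared for days 3, 6 and 9. In the order of all genes, 4.32% had a shift at or above that of RBM3 on day 3 and 14.2% on day 9, and the figures for CIRBP were 7.76% and 11.6%. With transcripts under 5% of the gene in both libraries left out, 1 of the 6 genes passed on day 9. This was RBM3, and CIRBP did not pass.

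None of the 4 kinases passed this limit. CLK1 had the largest of their shifts on day 3, 0.221, and 0.073 and 0.034 on days 6 and 9. CLK3 had 0.129, 0.208 and 0.157, CLK2 had 0.116, 0.098 and 0.097, and CLK4 had 0.037, 0.072 and 0.065. At constant temperature the shifts of the 6 genes were at most 0.171, that of CLK1 for day 6 against day 3. Of all genes, 19.5% had a shift at or above this one. None of the 6 passed the limit at constant temperature. Of all genes, 9.14% of 10162 did for day 6 against day 3 and 8.42% of 10182 for day 9 against day 6. Transcript FPKM are estimates from shared reads, and no error of theirs is held in the table.

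**Figure D4:**
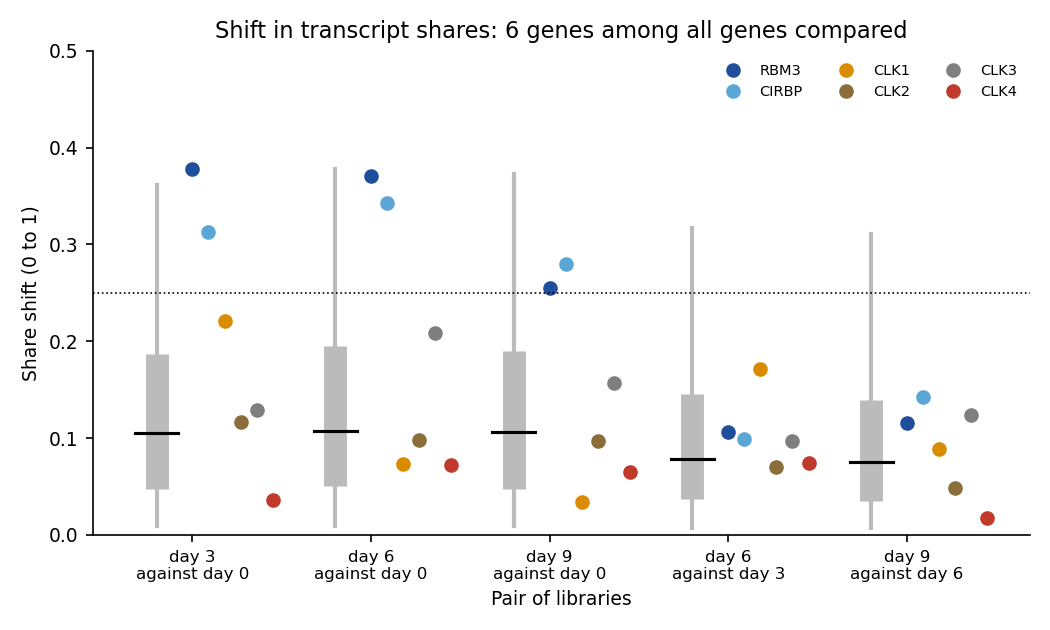
Shift in transcript shares (vertical axis, 0 to 1) for 5 pairs of libraries (horizontal axis), with a coloured point for each of the 6 genes, and for all genes compared the median (black line), the middle 50% (wide grey bar) and the range from the 5th to the 95th percentile (thin grey line). The dotted line is the limit of 0.25, above which RBM3 and CIRBP lie in the 3 comparisons with day 0 and no gene of the 6 in the other 2.

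The SR proteins are the substrates of the CLK kinases. Of 14 SR protein genes, all at 1 FPKM or more in any library, 4 were at least 2-fold lower on all 3 later days and 0 were higher, beside 3.45% and 5.93% of all genes. SRSF1 had 151 FPKM on day 0 and 71.7, 64.7 and 56.2 later, SRSF2 had 84.3 and 38.9, 32.2 and 28.7, and SRSF3 had 149 and 69.5, 55.9 and 50.8. TRA2B, an SR-like splicing activator, had 141 FPKM on day 0 and 65.4, 52.4 and 43.7 later. The median log2 ratio of the 14 genes was -0.56, -0.59 and -0.71 on days 3, 6 and 9, beside -0.08, -0.08 and -0.09 over all genes. Below 0 on all 3 days were 13 of the 14. The share of all genes was not taken for this count, so nothing is read from it. The count was 11 and 10 with each library rescaled to the same median or total. With these scalings 2 and 0 genes passed the limit on all 3 days, while the median of the list stayed below 0 on each day, at -0.36, -0.41 and -0.60 with the same total. SRSF4 had 49.5 FPKM on day 0 and 46.0 on day 9, and SRSF5 had 151 and 118.

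The hnRNP genes encode the other large family of RNA-binding proteins that act on splice sites. Of 20, 3 were at least 2-fold lower on all 3 days, and 0 were higher, beside 3.45% and 5.93% of all genes. HNRNPD, which binds AU-rich elements and promotes mRNA decay, had 316 FPKM on day 0 and 96.3, 63.9 and 54.6 later. HNRNPM had 177 FPKM and 71.4, 61.4 and 64.2, and HNRNPDL had 210 FPKM and 103, 78.7 and 71.6. The median log2 ratio of the list was -0.49, -0.43 and -0.64. All 20 genes were below 0 on all 3 days, against 18 with the same median and 14 with the same total. The share of all genes was not taken here either, so nothing is read from these counts. With either rescaling 2 of the 20 were lower on all 3 days, with the leading transcript of each gene alone 5 passed the limit, and with the same total the medians were -0.29, -0.26 and -0.53.

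Among the closest relatives of the CLK kinases, the DYRK, HIPK and SRPK families with PRPF4B, 11 of 13 reached 1 FPKM. Of these, 0 passed the limit on all 3 days in either direction, beside 3.45% of all genes lower and 5.93% higher. In a list this short, nothing is read from this count. HIPK2 had 17.7 FPKM on day 0 and 32.2, 43.7 and 42.6 later, with log2 ratios of 0.82, 1.25 and 1.22. It was the single one to pass on days 6 and 9, when 9.01% and 9.60% of all genes were higher. HIPK2 was named after its values were seen. With each library rescaled to the same total, 1 of the 11 passed on all 3 days. SRPK1, the other main kinase of SR proteins, had 38.4, 32.3, 42.5 and 48.4 FPKM from day 0 to day 9.

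Heat shock genes, most of whose products are chaperones or their partners, were included because heat induces many of them. The list also holds the transcription factors HSF1 and HSF2. Of the 14 genes, 0 passed the limit on all 3 days, beside 3.45% of all genes lower and 5.93% higher. On day 3, 1 was lower, beside 5.30% of all genes. On any day 0 were higher, beside 8.13%, 9.01% and 9.60% of all genes on days 3, 6 and 9. In a list this short, nothing is read from these counts. The one lower on day 3, HSPA8, the constitutive HSP70, had 977 FPKM on day 0 and 477, 576 and 590 later. The inducible HSPA1A had 58.2, 63.8, 83.3 and 71.8 FPKM, and HSPA1B, a copy so alike that reads of the pair may not be assigned with certainty, had 58.3, 67.2, 84.4 and 75.7. The median log2 ratio of the list was -0.32, -0.03 and 0.10 for days 3, 6 and 9, and for day 6 it was above 0 with either rescaling, at 0.06 with the same median and 0.14 with the same total. The first hours after the transfer were not sampled.

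**Figure D5:**
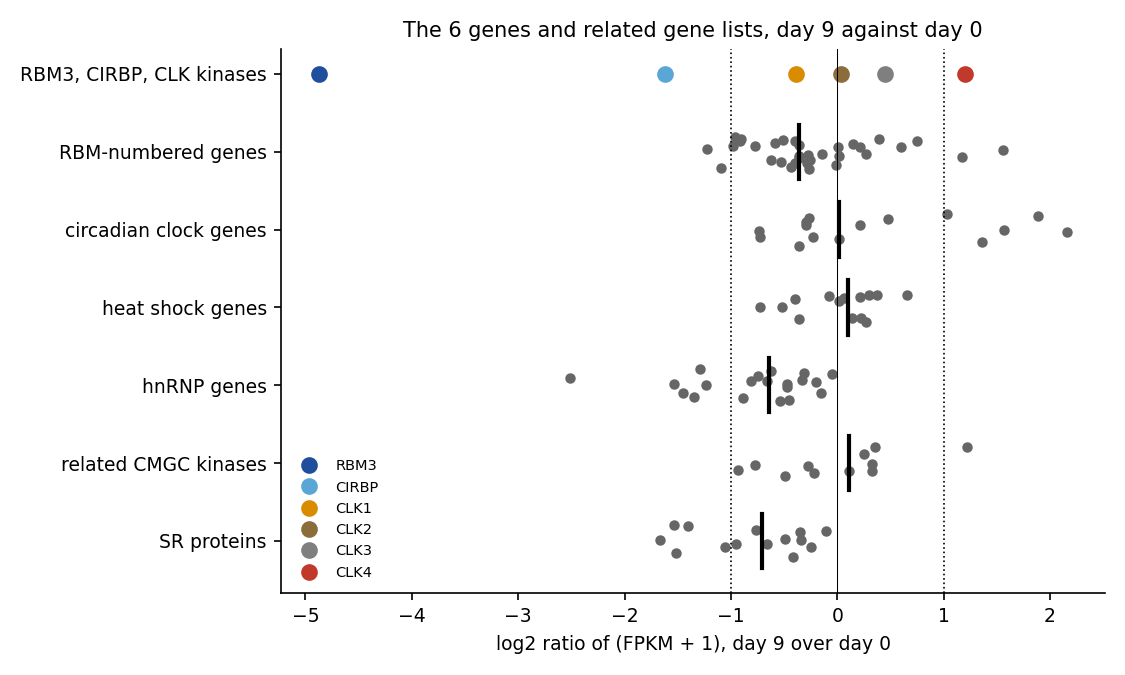
log2 ratio of FPKM + 1 for day 9 against day 0 (horizontal axis), 1 point per gene, for RBM3, CIRBP and the CLK kinases (coloured) and for 6 related lists (grey, with the median as a black bar and dotted lines at -1 and 1). RBM3 at -4.87 lies left of every gene of the lists, and the medians of the SR proteins and hnRNP genes lie at -0.71 and -0.64.

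The genes whose pattern was most like each of the 6 were taken from 7742 genes with a mean of at least 10 FPKM, by the root mean square difference of the 3 log2 ratios to day 0. RBM3 had no close neighbour, and as its ratios were the lowest of all genes on each later day, nothing is read from this. The nearest were the histone genes HIST1H2AB and HIST1H1B, at 0.75 and 0.77, and PLK1, a kinase of mitosis, at 0.87. PLK1 had 130 FPKM on day 0 and 8.02, 6.19 and 8.03 later. Histone genes of this cluster are so alike that the values of single ones are uncertain.

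CIRBP was closest to MRRF, a factor of mitochondrial translation, at 0.07, and to GAS2L3 and SMARCD1, both at 0.09. CLK4 was closest to RCN1, a calcium-binding protein of the endoplasmic reticulum, at 0.02, to TSPAN5 at 0.03 and to GCC2 at 0.04. RCN1 had 121 FPKM on day 0 and 260, 275 and 276 later. The nearest to CLK1 were NRM, KNTC1 and KANSL1, at 0.03 to 0.06, those to CLK2 were DOCK1, MTCL1 and ZCCHC11, at 0.02 to 0.03, and those to CLK3 were TPGS2, PAWR and MT-ND4, at 0.02 to 0.03. These patterns rest on 4 libraries, which all genes share.

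RefSeq names CIRBP-AS1 and CLK3-AS1 as genes and CLK2P1, CLK3P1 and CLK3P2 as pseudogenes after genes described here. None of the 3214 symbols of the deposited lncRNA table is named after any of the 6. The libraries mark strand, but whether counting used it is not given in the sources used here, so that reads of an antisense partner or a pseudogene may be included in CIRBP, CLK2 and CLK3.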

How the data were processed

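Total RNA of hFOB 1.19 cells from days 0, 3, 6 and 9 was depleted of ribosomal RNA and sequenced with a directional kit, with 1 library per time point. The methods describe RNase R for the mRNA libraries, an enzyme that digests linear RNA. Reads were aligned with Bowtie and TopHat. The submitters' processing notes name Bowtie 0.12.2 and the mouse build mm8, although the deposited identifiers are human, and the program behind the FPKM and its build are not given in the sources used here. The authors deposited FPKM per transcript for mRNAs and lncRNAs. Their 9 tables of comparisons with day 0, which hold fold changes, p-values and q-values, and the circRNA counts, which pair with no gene name, were not used.

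FPKM were summed per gene symbol (17 of the symbols cover more than 1 gene ID), and log2 ratios were taken after adding 1, with a minimum of 1 FPKM in any library and a limit of 2-fold. As FPKM hold no counts and each day has 1 library, no test was run and no p-value is given. Depth per gene is unknown. The columns were matched to samples by the day in the titles. The 6 genes, the lists of related genes and the limits were chosen with earlier results of these data known. Of each list, the genes named are at most 4 of those past the limit on all 3 later days, by mean size of the ratio, and others are named as examples chosen after their values were seen. For each of the 6 genes, the 3 nearest patterns are named. Promoters are RefSeq windows of GRCh38.p14. A planned comparison of protein sequences was not made. The functions were tested on simulated data. Alternatives changed the pseudocount, the scaling, the minimum, the limit and the use of the leading transcript. Python 3.11.15, numpy 2.4.6, pandas 2.3.3 and matplotlib 3.10.9 were used.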

Additional observations from a re-analysis of the deposited data

How the results depend on the processing

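No paired analysis was possible because no day has more than 1 library, and no replicate could be left out for the same reason. No log2 ratio past the limit changed its sign under the alternatives run. With 5 added to the FPKM, CLK4 fell under the 2-fold limit, with 0.91, 0.96 and 0.97 on days 3, 6 and 9, so that 0 of the 6 genes were higher on each day or on all 3, and the genes of the lists past the limit on all 3 days numbered 8 in place of 14. With a limit of 2 on the log2 scale, stricter by construction, 1 of the 6 genes, RBM3, was lower on each day and on all 3, 0 were higher, and 0 genes of the lists passed. RBM3 had log2 ratios between -5.45 and -4.29 under all settings tried and CIRBP between -1.63 and -1.01. For transcript shares, a limit of 0.1 gave 5 genes for day 3 against day 0, 2 for day 6 against day 3 and 3 for day 9 against day 6. The median shift over all genes was 0.105, 0.078 and 0.075 in these comparisons, close to that limit, so nothing is read from these counts. A limit of 0.5 gave 0 in each comparison. With transcripts under 5% left out, 1 gene, RBM3, passed for day 9 against day 0. Rescaling to the same median or total moved the median log2 ratio of all genes from -0.08 on day 3 to 0.01 and 0.10. It changed no count of the 6 genes past the 2-fold limit. Among the lists, it changed the SR proteins past the limit on all 3 days from 4 to 2 and 0. The minimum FPKM and a pseudocount of 0.1 changed none of these counts beyond 1.5 times. Where no construction is named, the cause was not tested.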

Other observations

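Of 37 symbols of other genes of the RBM series, 33 reached 1 FPKM. On all 3 later days 2 were at least 2-fold lower and 2 higher, near the 3.45% and 5.93% of all genes. The median log2 ratio was -0.18, -0.17 and -0.36 on days 3, 6 and 9. On all 3 days 20 of the 33 were below 0 and 9 above. The share of all genes was not taken, so nothing is read from these counts. RBM42 had 90.0 FPKM on day 0 and 35.7, 37.8 and 37.9 later, and RBM28, a nucleolar protein, had 22.9 and 10.2, 9.26 and 10.2. RBM38, an RNA-binding protein known as a target of p53, was higher, with 11.5 FPKM on day 0 and 29.3, 24.8 and 27.3 later. The other higher symbol, RBM14-RBM4, is a read-through of 2 genes that share its reads, with 0.612 FPKM on day 0 and between 3.76 and 4.59 later. With the same total in each library, the medians of the list were 0.00, 0.01 and -0.24, and 1 symbol was lower on all 3 days. With this scaling 14 were below 0 on all 3 days and 11 above. With 5 added to the FPKM, 1 of the 33 passed the limit on all 3 days in place of 4.

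CIRBP is known to bind transcripts of the circadian clock. Of 16 clock genes, 15 reached 1 FPKM, and 3 were at least 2-fold higher on all 3 days while 0 were lower, beside 5.93% and 3.45% of all genes. These were RORA, with 2.77 FPKM on day 0 and 7.92, 13.2 and 15.9 later, BHLHE40, with 15.5 and 46.3, 46.9 and 47.8, and NR1D1, with 5.30 and 12.0, 14.7 and 15.2. CLOCK itself had 22.2 FPKM on day 0 and 17.4, 18.6 and 18.0 later, within the limit. PER1 was lower on days 3 and 6, with 14.0 FPKM on day 0 and 4.89, 6.46 and 8.02 later. The median log2 ratio of the list was 0.32, 0.37 and 0.02, and with either rescaling 4 genes were higher on all 3 days. With 5 added to the FPKM, 1 clock gene passed on all 3 days. Each time point is a single library, and the hour of collection is not given in the sources used here.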
